A study of Mus musculus with 238 samples.

Results

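The genes described here are 7 genes of thyroid hormone signalling, Dio1, Dio2, Thra, Thrb, Thrsp, Hr and Klf9, found by symbol among the 21076 gene rows of a table of read counts, in which each of the 7 had a row. The table held 238 mRNA-seq libraries from 16 mice of the strain C57BL/6JN, all 19 months old, of which 229 libraries came from 15 brain regions and 9 from liver. In the diet experiment 5 female mice were dietary restricted (aDR, labelled DR in liver) and 4 female mice were fed ad libitum (AL). The other experiment used male mice, 3 injected with young mouse plasma (YMP) and 4 with PBS, all by the retro-orbital route, so that its controls were injected too. The labels name no transgene or mutant allele in any group. All diet mice were female and all plasma mice male, so sex and experiment cannot be told apart. Liver was taken only from the diet mice. A brain region had 4 or 5 aDR against 3 or 4 AL libraries, and 2 or 3 YMP against 3 or 4 PBS libraries. The labels give no batch and no hour of sampling.

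The thyroid releases mainly thyroxine, a prohormone that deiodinases turn into the active hormone triiodothyronine or inactivate. The receptors encoded by Thra and Thrb sit on DNA as dimers with retinoid X receptors, repress their targets without hormone and activate them with it. In the brain Dio2 in astrocytes and in tanycytes (glia lining the floor of the hypothalamic ventricle) makes most of the active hormone, and in the liver Dio1 does, with Thrb as the main receptor there. Thrsp, Hr and Klf9 are genes that the hormone induces, although Klf9 is also a textbook target of glucocorticoids and of the circadian clock.

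In the GENCODE annotation of GRCm38, the genome build the submitters' processing notes name, all 7 are protein-coding genes. The deiodinase genes lie at chr4:107291465-107307169 (Dio1, minus strand) and chr12:90724552-90738438 (Dio2, minus strand). The receptor genes lie at chr11:98740638-98769006 (Thra, plus strand) and chr14:17660261-18038090 (Thrb, plus strand). The hormone-induced genes lie at chr7:97412938-97417730 (Thrsp, minus strand), chr14:70552212-70573548 (Hr, plus strand) and chr19:23141226-23168134 (Klf9, plus strand). The counts carry no strand. The end of Thra overlaps the end of Nr1d1, a clock gene on the opposite strand, over 1075 bases (chr11:98767932-98769006), 263 of them exonic in both genes, and reads there cannot be assigned to either gene with certainty. Exons of Dio2 and of the noncoding gene Gm26512 on the opposite strand share 100 bases (100 of 5815 exonic bases of Dio2).

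Promoter windows, from 250 bases before a start site to 50 after it, were at hand from RefSeq (GRCm38.p6) for 5 of the 7 genes, all but Thra and Hr. They are printed for Thrb, whose level differed 11.5-fold between brain regions and which has 2 start sites that the counts do not separate, and for Klf9, the gene with the same sign of difference in most regions of both experiments. Capitals mark the receptor-binding core AGGTCA in the first Thrb window and the glucocorticoid receptor core AGAACA, on either strand, in the second.
Thrb promoter 1 (chr14:17660710-17661009, plus strand): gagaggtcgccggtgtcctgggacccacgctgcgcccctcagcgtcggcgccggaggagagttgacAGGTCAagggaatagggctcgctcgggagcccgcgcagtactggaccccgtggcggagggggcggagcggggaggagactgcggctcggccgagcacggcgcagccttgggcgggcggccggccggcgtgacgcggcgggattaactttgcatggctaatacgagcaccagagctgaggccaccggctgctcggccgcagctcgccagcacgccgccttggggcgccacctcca
Thrb promoter 2 (chr14:17981394-17981693, plus strand): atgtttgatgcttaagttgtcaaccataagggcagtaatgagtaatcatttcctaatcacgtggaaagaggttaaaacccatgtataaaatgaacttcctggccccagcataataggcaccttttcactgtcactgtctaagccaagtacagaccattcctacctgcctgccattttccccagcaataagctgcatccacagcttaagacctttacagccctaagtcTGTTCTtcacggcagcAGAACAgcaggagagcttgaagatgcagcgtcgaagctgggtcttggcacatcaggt
Klf9 promoter (chr19:23140976-23141275, plus strand): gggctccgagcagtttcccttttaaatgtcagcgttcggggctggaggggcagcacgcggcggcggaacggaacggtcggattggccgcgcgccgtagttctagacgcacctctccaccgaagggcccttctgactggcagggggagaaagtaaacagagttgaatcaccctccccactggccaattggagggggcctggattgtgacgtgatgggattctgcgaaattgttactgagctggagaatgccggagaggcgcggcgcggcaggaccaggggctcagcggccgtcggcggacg
Of 5 motifs searched on both strands, AGGTCA was found in 16.3% of 32851 such windows of all genes, its direct repeat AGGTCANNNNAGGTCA in 0.0152%, AGAACA in 19%, the palindrome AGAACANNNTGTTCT in 0.00913% and the E-box CACGTG, which can hold the clock activators, in 7.15%. The first Thrb window held AGGTCA once, starting 184 bases before the start site. The second Thrb window held AGAACA at 23 bases before the start site on the minus strand and at 7 bases before it on the plus strand, and CACGTG at 193 bases before it. None of the 5 motifs was in the Klf9 window or in those of Dio1, Dio2 and Thrsp, which says only that these letters are not in these windows.

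Levels are given as CPM, the counts of a gene divided by the library total in M counts (M for mega), after TMM scaling, which adjusts library totals for differences in composition and was computed separately for brain and for liver. Library totals lay between 0.606 M and 32.4 M counts with a median of 8.44 M, and 6 were under 2 M. In the diet experiment these were medulla of aDR mouse 62, visual cortex of aDR mouse 64 and olfactory bulb of aDR mouse 65. In the plasma experiment they were anterior hippocampus of PBS mouse 80, olfactory bulb of YMP mouse 73 and pons of YMP mouse 81. Of the 229 brain libraries, 218 correlated best with the mean of their own region and 11 with that of another, among them the entorhinal cortex library of PBS mouse 72 (r = 0.988 with visual cortex, 0.976 with its own region) and the subventricular zone (SVZ) library of the same mouse. The summed level of 8 choroid plexus markers in the libraries labelled choroid plexus ran from 160.2 to 16534 CPM, so these held very different amounts of that epithelium. The pons library of aDR mouse 67 stood furthest from its region (r = 0.879, median of all libraries 0.991). It held 155605 CPM of Prl and 33406 CPM of Gh, hormones of the pituitary gland, where the other 8 pons libraries of the experiment had at most 1405 and 402 CPM. Values from the libraries described in this paragraph are named below in some places, but not in every result they touch. In bulk tissue a lower level can mean fewer cells of a type or less RNA per cell, and these cannot be told apart.

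Within each control group the level of 6 of the 7 genes differed between brain regions, in AL mice and in PBS mice alike. Each of the 6 passed an edgeR quasi-likelihood F test over the 15 regions (adjusted p of at most 3.04e-13 in AL and 1.98e-11 in PBS), as did 98% of all 15324 genes tested in AL and 96% of 15415 in PBS, so that passing was no mark of these genes. Dio1 did not pass the filter on low counts in these fits. By the size of F in AL mice Klf9 came first of the 6 (F = 109, rank 106 of 15324), then Thrb (52.3), Hr (30.1), Dio2 (29.7), Thra (24.7) and Thrsp (16.5), while in PBS mice Thrb came first (F = 70.9, rank 155 of 15415). The order of the 15 region means was much the same in both control groups, with a Spearman rho from 0.85 for Dio2 to 0.98 for Thrb and a Pearson r of log2 means from 0.94 for Thrsp to 0.99 for Klf9 among the 6 genes. For Dio1, with counts near 0 in most regions, rho was 0.54. That similarity is a description over 15 regions, whose means within a group come from the same mice.

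**Figure D1:**
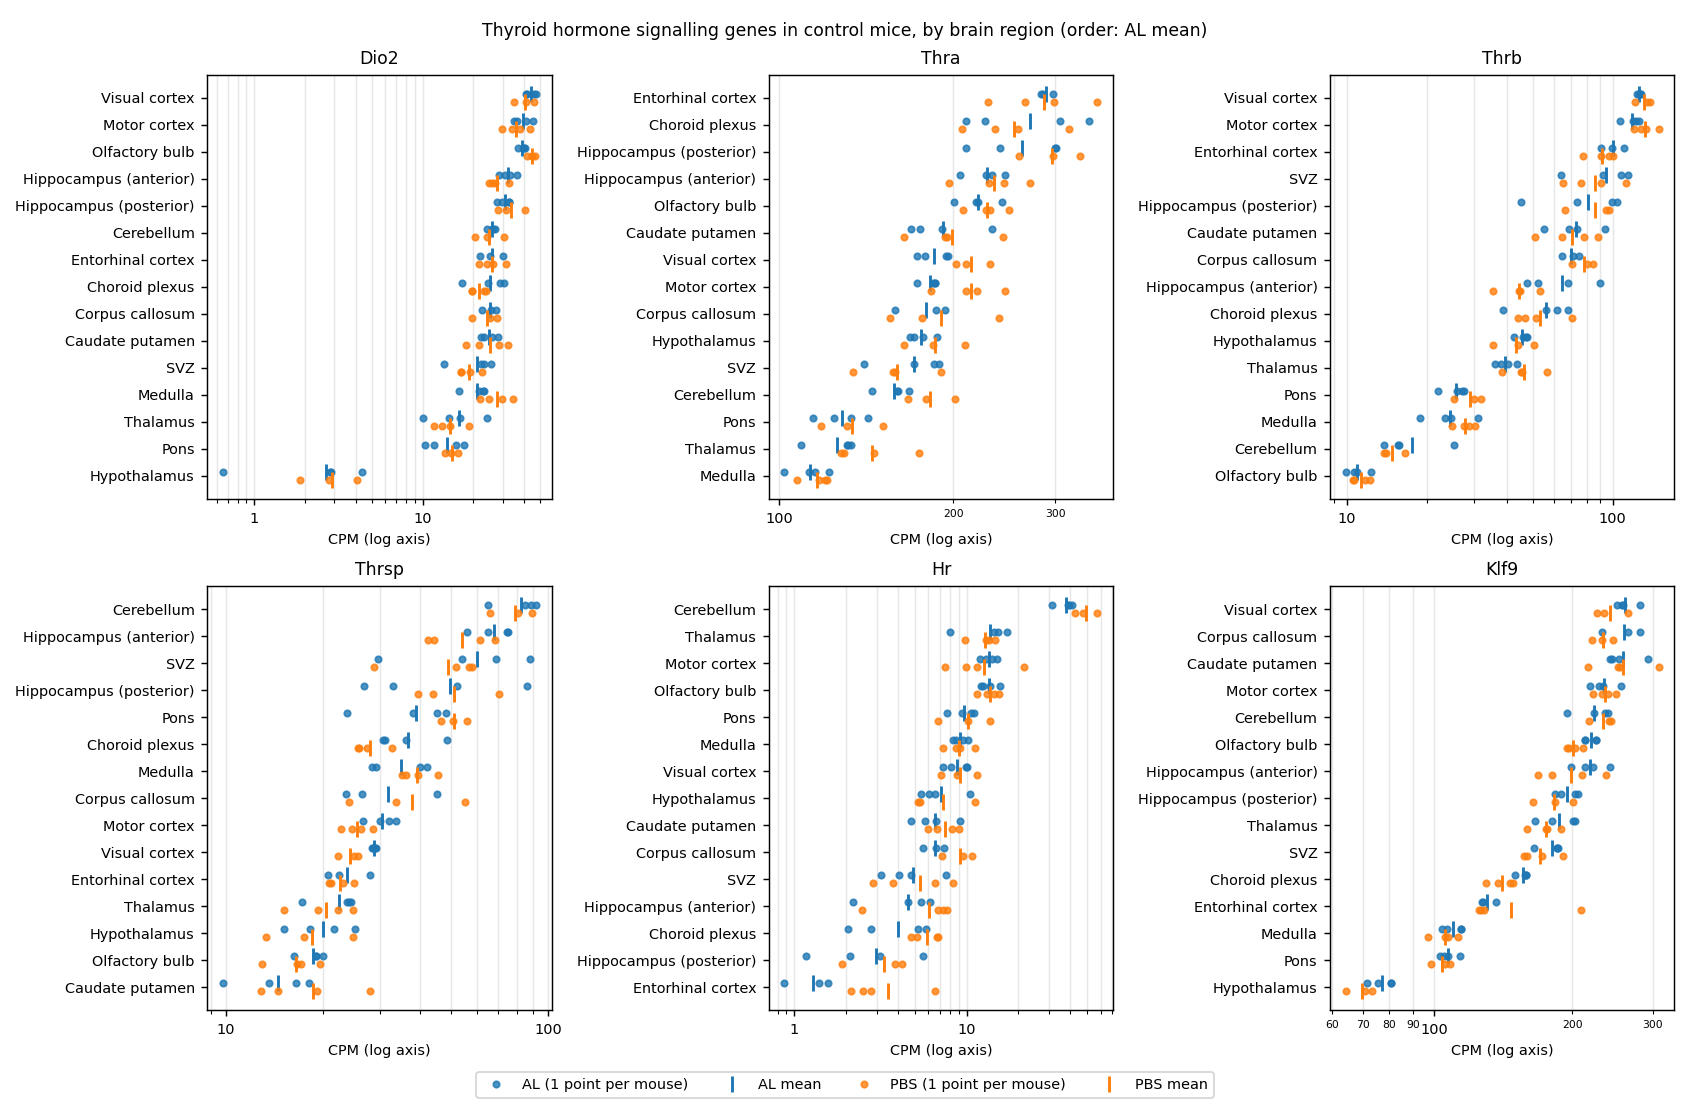
Level of 6 thyroid hormone signalling genes in the control mice by brain region (CPM, log axis), 1 point per mouse with AL mice in blue and PBS mice in orange, short lines at the group means and regions in the order of the AL means. Dio2 and Klf9 were lowest in hypothalamus, Thrb in olfactory bulb and Hr in entorhinal cortex or posterior hippocampus, and the cerebellum was the highest region for Thrsp and Hr.

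Dio2, the activating deiodinase of the brain, was highest in visual cortex, motor cortex and olfactory bulb and lowest in hypothalamus. In AL mice its mean was 43.9 ± 2.93 CPM (SD, n = 4) in visual cortex, 39.3 in motor cortex and 39.1 in olfactory bulb, followed by anterior hippocampus (32.1) and posterior hippocampus (30.7). Cerebellum, entorhinal cortex, choroid plexus, corpus callosum and caudate putamen lay between 24.8 and 25.7 CPM, with overlap at each step among these 5 regions. SVZ and medulla (21.05 and 21.04), thalamus (16.3) and pons (13.9) came next. The hypothalamus, with AL values of 0.656, 2.81, 2.85 and 4.395 CPM and PBS values of 1.86, 2.80 and 4.07 CPM, was below every library of the next region in both groups, which makes its mean 16.4-fold lower than the highest in AL and 15.2-fold lower in PBS. The 6 tanycyte markers summed to between 16.1 and 146 CPM in the hypothalamus libraries of all groups, and 7 astrocyte markers to between 3219 and 4393 CPM, so the tanycyte sum varied more between libraries than the astrocyte sum. Neighbours in the order were separate without overlap in 3 of 14 steps in AL and 2 of 14 in PBS.

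Dio1, the deiodinase of liver, kidney and thyroid, was close to absent from brain. It had a count in 32 of 229 brain libraries, and 14 of the 15 pons libraries were among these (141 counts, at most 2.53 CPM), against 18 of 214 libraries of the other regions (at most 0.837 CPM, in medulla). In 6 regions no library had a count, which allows at most 0.0182 to 0.0248 CPM by the rule of 3 counts per region, counting error only. In AL pons the 4 values were 0, 0.818, 1.39 and 1.77 CPM and in PBS pons 0.905, 1.417 and 2.53 CPM. The aDR pons had 0.271 to 2.496 CPM and the YMP pons 0.12 to 2.51 CPM, within or close to the control ranges. In liver the mean was 101 ± 17.1 CPM (SD, n = 4) in AL mice.

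Thra, the more widely expressed receptor gene, varied least over the brain. Its AL mean was highest in entorhinal cortex (288 ± 7.15 CPM, SD, n = 3) and lowest in medulla (113 ± 8.31, n = 4), a 2.55-fold span (2.54-fold in PBS). Choroid plexus (271), posterior hippocampus (263), anterior hippocampus (228) and olfactory bulb (221) followed the entorhinal cortex. Caudate putamen (192), visual cortex (185), motor cortex (182), corpus callosum (179.6), hypothalamus (176), SVZ (171) and cerebellum (158) formed a middle group, and pons (129) and thalamus (126) stood just above medulla. Only the step from cerebellum to pons was free of overlap in AL mice, and no step was in PBS mice.

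Thrb, the receptor gene of the pituitary and liver, had a much wider range. In AL mice it was 126 ± 2.09 CPM (SD, n = 4) in visual cortex and 119 in motor cortex, 99.98 in entorhinal cortex, 94.2 in SVZ, 80.6 in posterior hippocampus, 72.8 in caudate putamen and 69.9 in corpus callosum. Anterior hippocampus (64.4), choroid plexus (56.2), hypothalamus (45.8) and thalamus (39.5) were lower, and pons (25.7), medulla (24.6) and cerebellum (17.7) lower again. Olfactory bulb was last, with AL values of 9.93, 10.6, 10.9 and 12.3 CPM and PBS values of 10.6, 10.6, 11.8 and 12.2 CPM, and did not overlap the cerebellum in either group. The span from the highest to the lowest region was 11.5-fold in AL and 11.7-fold in PBS.

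Per kilobase of exon (4.614 kb for Thra, 7.403 kb for Thrb), the level of Thra exceeded that of Thrb in every brain library of both control groups. The ratio of Thra to Thrb per kilobase was 32.4 in the AL olfactory bulb (30.3 to 35.6 over 4 mice) and 32.7 in the PBS olfactory bulb, 15.3 in the AL cerebellum (9.15 to 19.4), and smallest in visual cortex (2.36, from 2.17 to 2.54) and motor cortex (2.48) of AL mice. In AL liver it was 1.40 (1.08 to 1.99). The ratio thus separated the olfactory bulb from the other brain regions in the controls, while it was nearest to equal levels in liver. The counts pool all transcripts of a gene, so this is a ratio of gene levels and not of hormone receptors.

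Hr, which encodes a corepressor that binds the thyroid hormone receptors, stood out in cerebellum. Its AL values there were 31.1, 38.6, 39.1 and 41.1 CPM and its PBS values 42.7 to 57.4 CPM (n = 3), above every library of every other region in the same group. Thalamus (13.7), motor cortex (13.5) and olfactory bulb (13.4) followed in AL mice, then pons (9.70), medulla (9.18), visual cortex (8.84), hypothalamus (7.14), caudate putamen (6.59) and corpus callosum (6.54). SVZ (4.90), anterior hippocampus (4.60), choroid plexus (3.97), posterior hippocampus (2.99) and entorhinal cortex (1.28 ± 0.36, SD, n = 3) were lowest. The span was 29.3-fold in AL and 14.8-fold in PBS, where the PBS mouse 72 library of entorhinal cortex was at 6.55 CPM against 2.12 to 2.80 in the other 3 mice.

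Thrsp, a regulator of fatty acid synthesis in liver and fat, was also highest in cerebellum (82.7 ± 11.9 CPM in AL, SD, n = 4), followed by anterior hippocampus (67.8), SVZ (60.3) and posterior hippocampus (49.5). Pons (38.9), choroid plexus (36.7), medulla (34.9), corpus callosum (31.8), motor cortex (30.6) and visual cortex (28.8) came next, and entorhinal cortex (23.7), thalamus (22.4), hypothalamus (20.02), olfactory bulb (18.6) and caudate putamen (14.5 ± 3.66) last. Neighbouring regions overlapped in all but 1 of 14 steps in AL and in all 14 in PBS.

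Klf9, a zinc finger transcription factor, had its highest AL means in visual cortex (261 ± 13.3 CPM, SD, n = 4), corpus callosum (259) and caudate putamen (258). Motor cortex (234), cerebellum (223), olfactory bulb (219.5), anterior hippocampus (219), posterior hippocampus (195), thalamus (188), SVZ (181), choroid plexus (156) and entorhinal cortex (130.5) followed, and medulla (110.0), pons (107) and hypothalamus (77.1 ± 4.30, n = 4) were lowest. The hypothalamus was separate from every other region in both control groups, and the span was 3.39-fold in AL and 3.71-fold in PBS. Klf9 and Dio2 shared their lowest region, and visual and motor cortex were high for both. Corpus callosum and caudate putamen, ranks 2 and 3 for Klf9 in AL mice, were ranks 9 and 10 for Dio2. The region means of Klf9 and Dio2 had a Pearson r of 0.78 in AL and 0.74 in PBS over 15 regions from the same libraries. How far this r rested on the hypothalamus was not tested. The region means of Hr and Thrb were negatively correlated (r = -0.57 in AL and -0.58 in PBS), as were those of Hr and Thra (-0.65 and -0.415). The orders were not opposite, since in AL mice motor cortex was rank 3 for Hr and rank 2 for Thrb.

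Among 13331 genes with at least 5 CPM in a region, those whose region means were most like Klf9 were Gabrd, Osbp2 and Tut7 (lowest Pearson r of the 3 in AL or PBS 0.909, over 15 regions). The most like Thrb were Zfp239, Gramd2 and Slc25a14 (lowest 0.901), and the most like Thra were Arsb, Zfand3 and Wdr13 (lowest 0.901). For Dio2 they were Ube3b, Inip and Msra (lowest 0.828), for Hr Mutyh, Dennd4b and Pacsin3 (lowest 0.839), and for Thrsp Hopx, Hopxos (which lies opposite Hopx, so that reads without strand may belong to either) and Sebox (lowest 0.801). For Dio1, which itself stayed under 5 CPM in brain, they were Slc18a2, Slc6a4 and Anxa4 (lowest 0.826). Most region means of Dio1 were 0, and pons (0.99 CPM in AL, 1.62 in PBS) was far above medulla (0.16 and 0.08), the next region. The r for Dio1 thus rested largely on pons. These likenesses are descriptions of means from shared libraries.

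The diet comparison within brain regions asked whether restricted feeding went with other levels of these genes. No gene of the 7 was called in any region (adjusted p under 0.05, edgeR quasi-likelihood test, each region fitted alone). Of 105 pairs of gene and region, 90 passed the filter on low counts, all but those of Dio1, and 0 of the 90 were called, beside 0.0525% of all 205693 such pairs in the table. At an unadjusted p under 0.05 there were 13 of 90 (14.4%, against 6.24% of all pairs), the smallest adjusted p was 0.177, and DESeq2 called 0 as well. The treated and control libraries did not overlap in 6 of 90 pairs (6.67%, against 3.08% of all pairs). Of these 6 pairs, 4 were of Klf9 and 2 of Thra.

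Klf9 was higher in the aDR mean in each of the 15 brain regions, as were 1.69% of the 12385 genes tested in every region, with log2 differences from 0.03 in olfactory bulb to 0.29 in hypothalamus and a median of 0.18. In hypothalamus the AL mice had 71.7, 75.6, 80.5 and 80.6 CPM and the aDR mice 85.3, 89.0, 93.8 and 109 CPM, without overlap (log2 difference 0.29, SE 0.091, edgeR p 0.00872, adjusted p 0.986). In SVZ the AL values were 165, 185, 186 and 186 CPM and the aDR values 198, 208, 217, 221 and 231 CPM, again without overlap (0.26, SE 0.066, edgeR p 0.00267, adjusted p 0.969). In cerebellum they were 195, 223, 236 and 239.5 CPM in AL and 242, 248, 259, 268 and 300.02 CPM in aDR mice (0.24, SE 0.075, edgeR p 0.00707, adjusted p 0.217). Every restricted mouse thus stood above every control mouse in these 3 regions and, by less than 1 CPM, in medulla (0.19, adjusted p 0.686). Groups were apart in this way, in either direction, for 3.2% of genes in hypothalamus, 1.98% in SVZ, 4.47% in cerebellum and 2.43% in medulla. Motor cortex, with 219 to 256 CPM in AL and 243 to 301 CPM in aDR mice, overlapped (0.18, adjusted p 0.284). The 15 regions come from the same 9 mice and are not 15 independent comparisons. Without aDR mouse 67 the difference was above 0 in 14 of 15 regions.

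**Figure D2:**
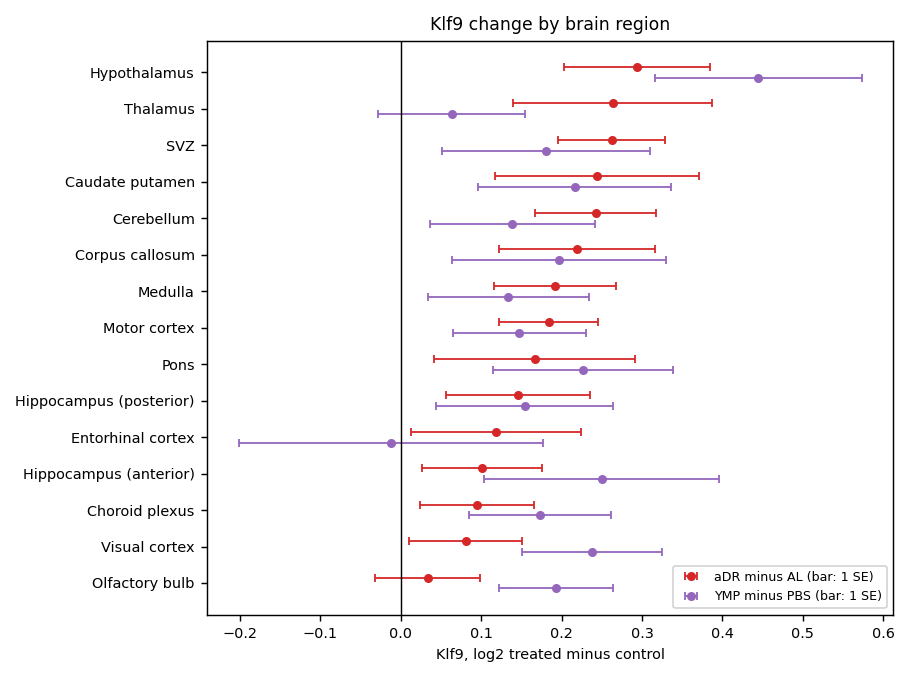
Difference in Klf9 between treated and control mice in each brain region (log2 treated minus control from the edgeR fit, bars 1 SE), aDR minus AL in red and YMP minus PBS in purple. All 15 diet values and 14 of 15 plasma values lie above 0, at medians of 0.18 in both experiments.

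With 1 value per mouse over all its brain regions, the Klf9 difference between diets was 0.17 on the log2 scale (SE 0.040). The AL mice were at -0.13, -0.10, -0.08 and -0.06 and the aDR mice at -0.04, 0.06, 0.06, 0.08 and 0.20, relative to the mean of the 9 mice. The groups did not overlap, which was so for 8.3% of 15616 genes, and the nearest restricted mouse was number 64. In the limma fit of these mouse values Klf9 had p 0.00169, rank 378 of 15616 and an adjusted p of 0.0698, and was not called, whereas 266 genes (1.7%) were. It passed without aDR mouse 64 (0.19, adjusted p 0.0352), and the other leave-one-out fits gave adjusted p-values up to 0.188. A fit over all 131 libraries with the mouse as a block, which assumes the same correlation within a mouse for all genes, called Klf9 (0.17, adjusted p 2.98e-06) along with 1474 genes in all. Of the 7 genes, 0 were called across the brain in the limma fit and 1, Klf9, had an unadjusted p under 0.05, as did 16.8% of all genes.

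The other genes showed no such run of the same sign across regions under diet. Thra was higher in 11 of 15 regions, and in cerebellum its AL values of 145, 159.6, 160.5 and 168 CPM lay below the aDR values of 174, 176, 178, 181 and 182 CPM (log2 difference 0.18, SE 0.050, edgeR p 0.0036, adjusted p 0.177). Groups were apart in cerebellum, in either direction, for 4.47% of genes. In motor cortex the AL values were 173, 184, 186 and 186 CPM and the aDR values 186, 198, 201, 204 and 211 CPM, which missed overlapping by less than 1 CPM (0.14, adjusted p 0.33; 3.76% of genes were apart in motor cortex). Across the brain Thra differed by 0.07 (SE 0.047, limma adjusted p 0.487) and the mice overlapped.

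In caudate putamen Dio2 and Thrb were both lower in the aDR mean. Dio2 there was 22.3, 23.2, 25.7 and 27.9 CPM in AL and 14.9, 16.1, 17.5, 19.2 and 23.6 CPM in aDR mice, so that 1 restricted mouse was within the control range (log2 difference -0.44, SE 0.14, edgeR p 0.0113, adjusted p 0.618). Thrb there was 55.0, 68.6, 73.6 and 93.8 CPM in AL and 38.3, 48.1, 48.5, 48.9 and 78.3 CPM in aDR mice, 4 of 5 restricted mice being below all controls (-0.47, SE 0.21, adjusted p 0.618). The sum of 7 astrocyte markers in caudate putamen was 2905 to 4197 CPM in AL and 3332 to 3949 CPM in aDR mice, and thus overlapped. Across the brain Dio2 differed by 0.07 (adjusted p 0.712) and Thrb by -0.03 (adjusted p 0.874). Thrsp (-0.05, adjusted p 0.63) and Hr (0.06, adjusted p 0.73) were as close to 0.

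The pons comparison of the diet experiment rested on 1 library. Dio2 was 10.4, 11.7, 15.9 and 17.7 CPM in the AL pons and 9.93, 14.5, 18.8, 19.4 and 354 CPM in the aDR pons, the last being mouse 67 (log2 difference 2.63, SE 1.14, edgeR p 0.0447, adjusted p 0.997). Thrb in the library of mouse 67 was 127 CPM against 16.3 to 29.3 CPM in the other 8 libraries, and Hr was 28.9 against 7.69 to 11.02 CPM, while Thra (85.2 against 114 to 176 CPM) and Klf9 (92.8 against 103 to 146 CPM) were the lowest of the 9. The same library held the pituitary genes Tshb (290.5 CPM, others at most 2.18), Cga (16865 CPM, others at most 131) and Pou1f1 (278 CPM, others at most 1.04), and its 6 pituitary hormone genes summed to 206307 CPM against 6.42 to 377 CPM in the AL pons. Its sum of 7 astrocyte markers, 1924 CPM, was the lowest (4705 to 5052 CPM in the AL pons), with Aqp4 at 131 CPM against 240.3 to 373 CPM. Without this library the log2 difference was 0.18 for Dio2, -0.02 for Thrb and -0.16 for Hr.

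**Figure D3:**
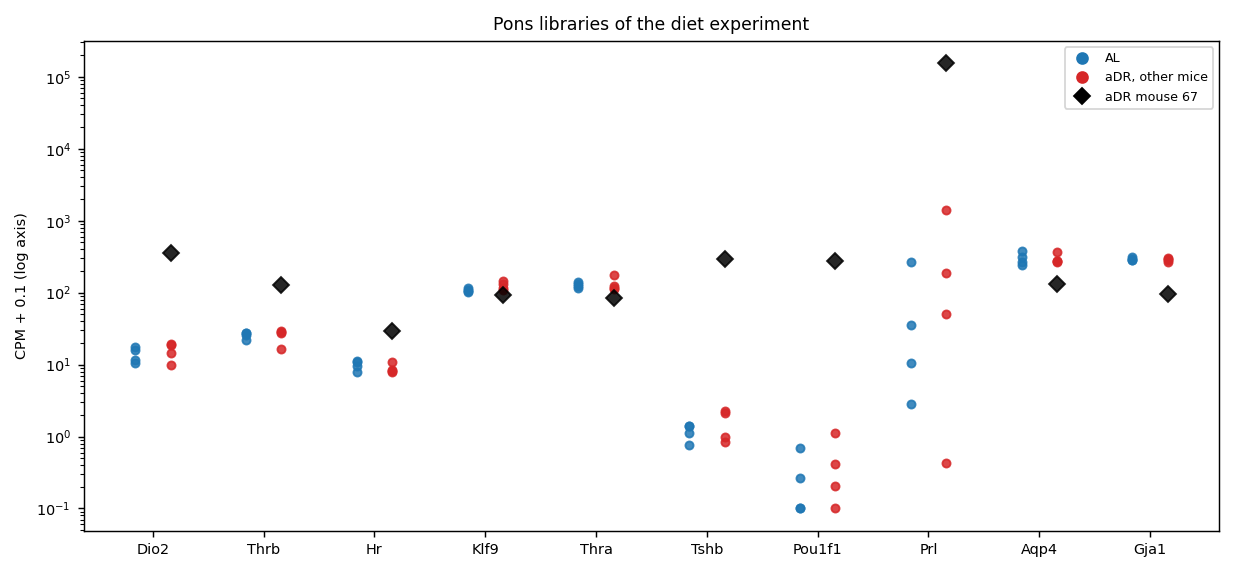
Levels of 5 thyroid hormone signalling genes, 3 pituitary genes (Tshb, Pou1f1, Prl) and 2 astrocyte genes (Aqp4, Gja1) in the pons libraries of the diet experiment (CPM + 0.1, log axis), 1 point per library, with the library of aDR mouse 67 as a black diamond. That library is far above the other 8 for Dio2, Thrb, Hr and the pituitary genes and below them for Klf9, Thra and the astrocyte genes.

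Whether the diet difference itself varied between brain regions was tested with the region by treatment terms of an edgeR fit. None of the 7 genes passed (0.0128% of 15616 genes did), and 1 had an unadjusted p under 0.05 (2.15% of all genes had one). That gene was Dio2 (F = 3.19, p 0.00033, rank 10 of 15616, adjusted p 0.49), and without the pons library of aDR mouse 67 its F was 1.35 (p 0.194).

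In liver, where the restricted mice carry the label DR, 5 of the 7 genes passed the filter and 0 were called (0.22% of 11815 genes were). Thra was the 1 gene of the 5 with an unadjusted p under 0.05 (9.09% of all genes had one), and DESeq2 called 0 of the 7 too. The tissue matched its label, with 5 hepatocyte markers summing to 66599 to 78076 CPM in AL and 73655 to 94938 CPM in DR mice. Thra was 23.9, 29.9, 31.4 and 50.8 CPM in AL and 7.94, 12.5, 15.95, 20.9 and 23.05 CPM in DR mice. All 5 restricted mice were below all 4 controls, as was the case, in either direction, for 4.19% of genes. The log2 difference was -1.05 (SE 0.31, edgeR p 0.00549, adjusted p 0.246), and leaving out AL mouse 66 reduced it to -0.79.

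Nr1d1, which overlaps the end of Thra on the other strand, fell in the same livers by 1.604 on the log2 scale (SE 0.24, edgeR adjusted p 0.0254), from 90.8, 94.8, 121 and 165 CPM in AL to 28.9, 29.8, 34.4, 40.1 and 58.7 CPM in DR mice. How much of the Thra difference came from reads of the shared 263 exonic bases was not tested, since the table holds 1 count per gene. The ratio of Thra to Thrb per kilobase was 1.08 to 1.99 in AL and 0.384 to 0.847 in DR livers, without overlap, and carries the same doubt.

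Dio1 in liver spread widely in the restricted mice, with 78.0, 99.4, 112 and 116 CPM in AL and 62.0, 103, 134, 162 and 301 CPM in DR mice (log2 difference 0.60, SE 0.37, edgeR adjusted p 0.711), and the difference was 0.19 without DR mouse 67. The lowest and the 3 highest of the 9 values were all from restricted mice. Thrb was 34.8 to 43.5 CPM in AL and 33.1 to 44.8 CPM in DR mice (0.01, SE 0.13, adjusted p 0.994), the closest pair of groups among the 5 genes.

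Of the hormone-induced genes, Thrsp was 587, 702, 726 and 1546 CPM in AL and 736, 747, 931, 1013 and 1056 CPM in DR livers, the highest value being AL mouse 69 (0.02, adjusted p 0.993). Without that mouse the difference was 0.43 (adjusted p in the range of 0.747 to 0.999 over the leave-one-out fits). Klf9, unlike in brain, had no higher mean in restricted livers (84.8, 102, 110.2 and 125 CPM in AL, 75.7, 93.9, 104, 104 and 106 CPM in DR; -0.11, SE 0.16, adjusted p 0.927). Dio2 had a count in 1 of 9 livers (7 counts, AL mouse 68, 1.12 CPM) and Hr in 8 of 9 (at most 1.76 CPM). When the gap between liver and brain in a mouse was compared between diets, limma called 0 of 5 genes (0.0881% of 11350 were called), with Thra at -1.17 (SE 0.31, p 0.00341, adjusted p 0.253) and Klf9 at -0.28 (adjusted p 0.79). A different response of Klf9 in liver and brain was therefore not shown.

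**Figure D4:**
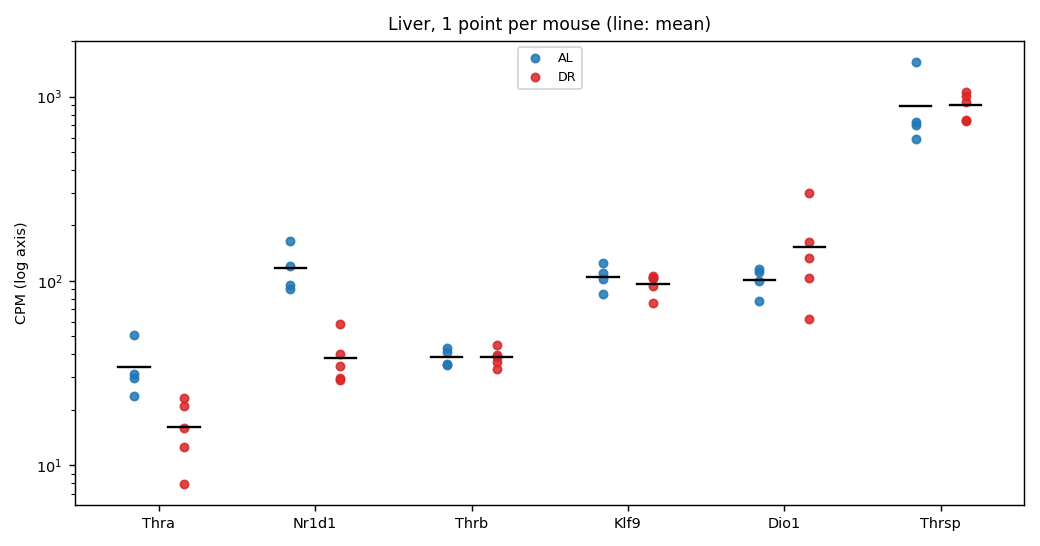
Levels of 5 thyroid hormone signalling genes and of Nr1d1, the neighbour that overlaps Thra, in liver (CPM, log axis), 1 point per mouse with AL in blue and DR in red and lines at the means. Thra and Nr1d1 of all 5 DR mice lie below those of all 4 AL mice, and the groups overlap for Thrb, Klf9, Dio1 and Thrsp.

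The plasma comparison asked whether young plasma went with other levels of these genes than PBS. No gene of the 7 was called in any brain region. Of 90 tested pairs of gene and region 0 were called by edgeR (0.0127% of 205500 pairs were), 9 (10%) had an unadjusted p under 0.05 against 6.11% of all pairs, the smallest adjusted p was 0.255 and DESeq2 called 0. The groups did not overlap in 9 of 90 pairs (10%), near the 9.16% of all pairs, and 5 of these 9 were of Klf9.

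Klf9 had a higher YMP than PBS mean in 14 of 15 regions, with a median log2 difference of 0.18. At least 14 of 15 was reached by 1.86% of 12327 genes. In hypothalamus the PBS mice had 64.3, 70.9 and 73.5 CPM and the YMP mice 78.3, 103 and 103 CPM, without overlap (log2 difference 0.44, SE 0.13, edgeR p 0.00924, adjusted p 0.998). In visual cortex the PBS values were 227, 235 and 264 CPM and the YMP values 273, 281 and 299 CPM, also without overlap (0.24, SE 0.087, adjusted p 0.999). Choroid plexus, corpus callosum and pons were the other 3 regions without overlap (0.17 to 0.23). Groups were apart in either direction for 9.47% of genes in hypothalamus, 7.43% in visual cortex, 6.08% in choroid plexus, 23.4% in corpus callosum, where 2 YMP mice were set against 3, and 5.77% in pons. In entorhinal cortex, the exception (-0.01), the PBS values were 126, 126, 129 and 209 CPM and the YMP values 139, 142 and 157 CPM. The highest was mouse 72, whose library correlated best with visual cortex, and without this mouse the difference was 0.20.

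Over the whole brain the Klf9 difference was 0.18 (SE 0.061, limma p 0.0188, adjusted p 0.516), and 0 of the 7 genes were called (limma; 0% of 15768 genes were; 1 of the 7 and 1318 of all had an unadjusted p under 0.05). The PBS mice were at -0.11, -0.09, -0.08 and -0.01 and the YMP mice at -0.05, 0.12 and 0.22. YMP mouse 73 thus lay within the PBS range (10.1% of genes had groups that did not overlap), and the other 2 lay above all PBS mice. Leaving out a mouse moved the difference between 0.11 (without YMP mouse 77) and 0.25 (without YMP mouse 73). With the mouse as a block over all 98 libraries Klf9 was called (0.18, adjusted p 0.00647), along with 486 genes in all.

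**Figure D5:**
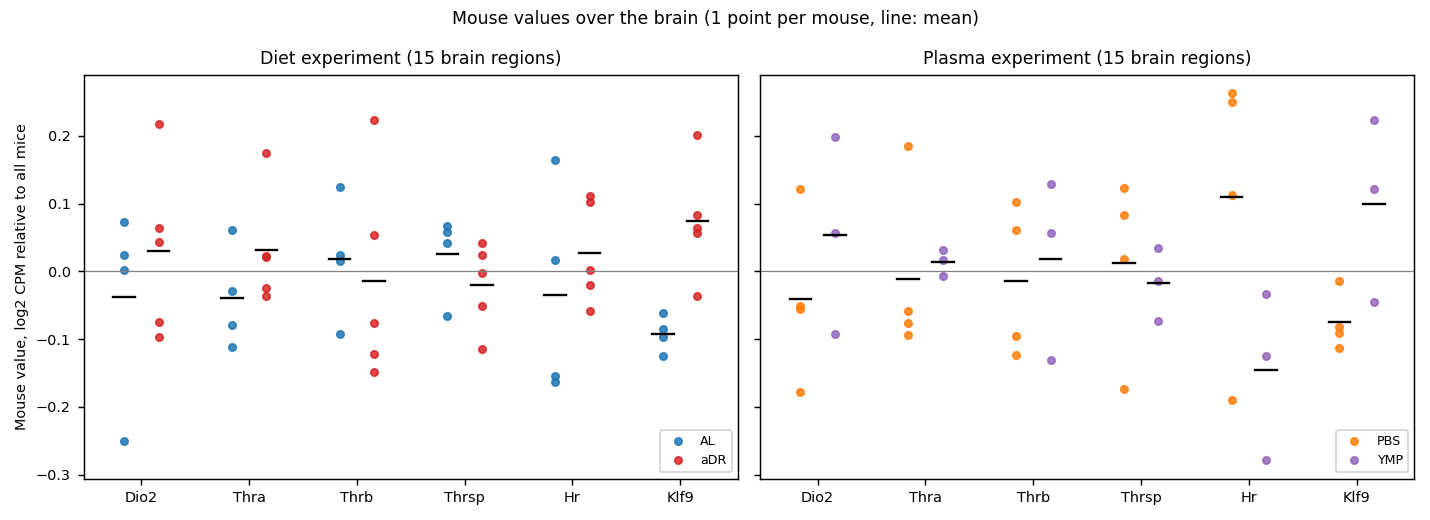
Value of each mouse over its brain regions for 6 genes (log2 CPM relative to all mice of the experiment), AL and aDR mice on the left and PBS and YMP mice on the right, 1 point per mouse with a line at each mean. The AL and aDR mice are apart for Klf9 (-0.13 to -0.06 against -0.04 to 0.20) and overlap for the other 5 genes, and PBS and YMP mice overlap for all 6.

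Dio2 in the hypothalamus, where its level was lowest, was 1.86, 2.80 and 4.07 CPM in PBS and 4.86, 5.45 and 5.94 CPM in YMP mice, without overlap (log2 difference 0.94, SE 0.32, edgeR p 0.0206, adjusted p 0.998). PBS and YMP mice were apart there, in either direction, for 9.47% of genes. The AL and aDR mice had 0.656 to 4.395 and 2.74 to 6.24 CPM there and overlapped (0.80, SE 0.44, adjusted p 0.986). The tanycyte marker sum in the plasma experiment was 16.1 to 131 CPM in PBS and 24.4 to 146 CPM in YMP mice, and the astrocyte marker sum 3318 to 3669 and 3219 to 3551 CPM, so neither list was apart between these groups. Across the brain Dio2 differed by 0.09 (adjusted p 0.794).

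Hr was lower in the YMP mean in 11 of 15 regions (10 with DESeq2 size factors). In entorhinal cortex it was 2.12, 2.49, 2.80 and 6.55 CPM in PBS and 0.998, 1.01 and 1.86 CPM in YMP mice, without overlap (log2 difference -1.49, SE 0.49, edgeR p 0.0149, adjusted p 0.91; 6.58% of genes were apart there), and the difference was -0.99 without PBS mouse 72. The YMP values there rested on only 7, 12 and 12 counts. In anterior hippocampus the PBS values of 2.46, 6.81, 7.32 and 7.69 CPM overlapped the YMP values of 3.09, 3.34 and 3.34 CPM through mouse 80 (-0.99, SE 0.30, adjusted p 0.683). The value of mouse 80 rested on 5 counts in a library of 1.96 M. Across the brain the difference was -0.26 (SE 0.12, limma p 0.0626, adjusted p 0.61).

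In the SVZ both Thra and Thrsp differed in the unadjusted test. Thra was 134, 157, 159 and 190.1 CPM in PBS and 201, 202 and 214 CPM in YMP mice, without overlap (log2 difference 0.37, SE 0.12, edgeR p 0.0156, adjusted p 0.255), as were 14% of genes in that region. Thrsp was 28.7, 51.7, 57.0 and 58.3 CPM in PBS and 26.4, 33.1 and 34.7 CPM in YMP mice (-0.62, SE 0.23, edgeR p 0.0301, adjusted p 0.314). Without PBS mouse 72, the control inside the YMP range, Thrsp was called (-0.81, edgeR adjusted p 0.0348). The SVZ library of that mouse was among those that correlated best with another region. All 8 choroid plexus markers were lower in every YMP than in every PBS library of the SVZ, with sums of 2764 to 19645 CPM in PBS and 29.2 to 54.4 CPM in YMP mice. Aqp1, Kcne2 and Tmem72 were at 0 in at least 1 YMP library. Their part in the Thra and Thrsp differences was not tested. In cerebellum Thra was lower, with 167, 179 and 201 CPM in PBS and 151, 158 and 167 CPM in YMP mice (-0.19, adjusted p 0.456), barely without overlap, as were 16.2% of genes there. Across the brain Thra differed by 0.02, Thrb by 0.03 and Thrsp by -0.03 (adjusted p 0.922 to 0.928). None of the 7 genes had a plasma difference that varied between regions in the test of that variation (0.786% of 15768 genes did, and 0 of the 7 had an unadjusted p under 0.05, against 7.62% of all genes).

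Other genes of the pathway were read from lists of their own. Across the brain under diet, 1 of 9 tested transporters and carriers of thyroid hormone rose (1.7% of all genes were called), Slc3a2, the heavy chain of amino acid carriers that also carry the hormone (log2 difference 0.10, SE 0.022, limma adjusted p 0.0461). Of 7 genes of hormone metabolism 1 rose, the sulfotransferase gene Sult1a1 (0.84, SE 0.17, adjusted p 0.0363). None was called by limma of 16 receptor partners (4 with an unadjusted p under 0.05, smallest for Med1, -0.11, adjusted p 0.159) or of 11 targets known from liver (2, smallest for Srebf1, 0.15, adjusted p 0.0698), where 16.8% of all genes had an unadjusted p under 0.05. Of 17 hormone targets known from brain (Shh, -0.13, adjusted p 0.31) and 8 genes of the hypothalamus, pituitary and thyroid axis 0 were called and 0 had an unadjusted p under 0.05. The median difference was 0.10 over the transporters and between -0.05 and 0.04 over the other lists, against -0.01 over all genes.

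Klf9 also belongs to circuits outside the thyroid axis, read here from a list of glucocorticoid-induced genes and one of clock genes. Like the other lists, both were chosen with earlier results of these data known, so their counts are a description only. Of 15 glucocorticoid-induced genes 7 rose across the brain (Plin4, Tsc22d3, Hif3a, Zbtb16, Per1, Sult1a1 and Fkbp5), with a median difference of 0.33 over the list. Of 14 clock genes 8 rose (Ciart, Cry1, Dbp, Per1, Per2, Per3, Cry2 and Tef) and Arntl fell, with a median of 0.18. Of all 15616 genes 1.7% were called by limma, and their median difference was -0.01. Per1 stands in both lists and Sult1a1 also in that of hormone metabolism. The part of either list in the Klf9 difference was not tested.

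In liver, 0 of 14 tested hormone targets known from that organ were called, although 7 had an unadjusted p under 0.05 (edgeR; 9.09% of all liver genes did), led by Pck1, an enzyme of glucose synthesis (log2 difference 1.27, SE 0.25, adjusted p 0.0768), and Cpt1a, which brings fatty acids into mitochondria (0.85, adjusted p 0.285). The list's median was -0.03, against 0.02 over all genes. None of 9 transporters (2 with an unadjusted p under 0.05, smallest for Slco1a4, 0.66, adjusted p 0.133), 5 metabolism genes (0) or 16 receptor partners (1, Rxrg, -0.94, adjusted p 0.113) was called by edgeR, nor was any of 7 targets known from brain (1). Of 14 tested glucocorticoid-induced genes 2 rose (Plin4 and Zbtb16), and of 13 clock genes 2 rose (Ciart and Cry1) and Nr1d1 fell, beside 0.22% of all genes called.

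Under plasma 0 genes of any of these lists were called across the brain by limma, as for all genes. An unadjusted p under 0.05 was reached by 4 of 9 transporters, 2 of 17 targets known from brain, 3 of 11 targets known from liver, 4 of 15 glucocorticoid-induced genes and 2 of 14 clock genes, by 0 genes of the other lists and by 8.36% of all genes. The median difference was 0.22 over the glucocorticoid-induced genes and 0.01 over the clock genes, against 0.00 over all genes. The smallest p among the transporters belonged to Ttr, the thyroxine carrier made by choroid plexus (-2.29, SE 0.50, adjusted p 0.309). In the test of variation between regions 2 of 9 transporters passed (0.786% of genes did), Slco1c1, the thyroxine carrier of the blood-brain barrier (adjusted p 0.00368), and Ttr (adjusted p 0.0477). Over all genes 124 passed this test, but only 3 without YMP mouse 81, so its calls depended on that mouse. The choroid plexus marker sum that moved with the groups in SVZ includes Ttr.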

How the data were processed

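The mRNA of brain regions and liver was sequenced from unstranded Smart-Seq2 libraries. The deposited table holds raw counts per gene made by the authors. The submitters' processing notes name Trim Galore 0.3.7, STAR 2.5.3a, DESeq2 and GRCm38, and the annotation is not given in the sources used here. No column was left unused. The 7 genes, the pathway lists and the tests were chosen with earlier results of these data known. From the counts, each region was fitted alone with edgeR 4.0.16 (R 4.3.3) after filterByExpr (minimum count 10, total 15) and TMM, with Benjamini-Hochberg adjustment over all genes of a fit and a call at an adjusted p under 0.05. Across the brain, each mouse got 1 value per gene, its coefficient beside region in a model of log2 CPM (prior count 2, computed here from the deposited counts), which limma 3.58.1 compared between groups. Differences between regions were tested with edgeR F tests, and liver minus brain with limma. On 1 scale over all libraries the liver levels would be 1.73 to 1.89 times higher. Replicates are separate mice, and 357 replicate pairs were checked for duplicates (chi-square per degree of freedom at least 1.29). The mouse number links regions of the same animal and never a treated with a control mouse. The mean correlation of deviations was 0.0493 between regions of a mouse against -0.0134 between mice for diet, and 0.121 against -0.0478 for plasma. Alternatives were DESeq2 (1.42.0), its size factors, no filter, another prior count, the mouse as a block, and leaving out mice, libraries or regions. Named pathway genes are those called, or at most 2 of a list with the smallest p. The test code was also run on simulated counts with changes of known size. Within a region these changes were larger than most differences reported here, and the simulation for the region by treatment test had no mouse effect. The run therefore does not show that differences as small as those reported would be found. Reads without molecular identifiers are not independent molecules, so limits from counts cover counting error only.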

Additional observations from a re-analysis of the deposited data

Results flagged for a closer look

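Among 90 groups of 4 or 5 mice that were checked, 13 had a highest or lowest value far from the rest by Dixon's criterion. The groups were the genes and regions named in the text and the values over the brain. They were picked with the data known, so 13 of 90 cannot be compared with a chance rate. In the pons of aDR mice, mouse 67 was far above the other 4 for Dio2 (354 CPM, others 9.93 to 19.4), Thrb (127 CPM, others 16.3 to 29.3) and Hr (28.9 CPM, others 7.86 to 10.8). This is the library with the pituitary hormone transcripts. The same mouse was high for Thrb in caudate putamen (78.3 CPM, others 38.3 to 48.9). Thrb in the olfactory bulb of aDR mouse 65 was 36.3 CPM against 9.63 to 11.96 CPM, in a library of 1.83 M counts. In entorhinal cortex PBS mouse 72 was high for Klf9 (209 CPM, others 126 to 129) and Hr (6.55 CPM, others 2.12 to 2.80). Hr in the anterior hippocampus of PBS mouse 80 was low (2.46 CPM, others 6.81 to 7.69), with 5 counts in a library of 1.96 M. Thra in the motor cortex of AL mouse 68 (173 CPM, others 184 to 186) and Klf9 in the SVZ of AL mouse 66 (165 CPM, others 185 to 186) were low by smaller amounts. Thrsp in the liver of AL mouse 69 was 1546 CPM against 587 to 726 CPM. Over the brain, Thra was high in aDR mouse 64 (0.18 on the log2 scale, others -0.04 to 0.02) and in PBS mouse 84 (0.19, others -0.09 to -0.06).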

How the results depend on the processing

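The count of called genes was 0 within regions and in liver under DESeq2, its size factors and no filter. Across the brain, the count rose from 0 to 1 (Klf9) in each experiment with the mouse as a replicate block and with no replicate block, which treats regions of a mouse as independent. All genes called for diet then rose from 266 to 1474 and 2527, and for plasma from 0 to 486 and 2114. For diet that number was 163 without choroid plexus and corpus callosum and 144 without a trend in the variance, and in liver it was 224 with DESeq2 against 26. With that block in the tests between regions the counts of the 7 genes stayed at 0 (diet and plasma differences) and 6 (levels). No replicate number pairs a treated with a control mouse. Leaving out each mouse gave 0 to 1 called across the brain for diet (Klf9 without aDR mouse 64) and within regions for plasma (Thrsp in SVZ without PBS mouse 72), and 6 to 7 of the 7 genes that differed between regions. All genes called then ran from 50 to 304 across the brain for diet (50 without AL mouse 66) and from 7 to 55 in liver. Genes whose plasma difference varied between regions numbered 124, 253 without the 11 libraries closest to another region and 3 without YMP mouse 81, and those whose diet difference varied between liver and brain numbered 10, and 0 to 32 without 1 mouse.

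Values near 0 changed sign. For Dio1 under diet across the brain the value was -0.0057 with a prior count of 0.5 and -0.0098 without choroid plexus and corpus callosum. With the mouse block Dio2 under diet was -0.018 and Thrsp under plasma 0.0058. Thra under plasma was -0.0062 without the 11 libraries closest to another region, and Thrb in liver -0.0056 without a filter. Without the pons library of aDR mouse 67 Thrb and Hr in pons were -0.021 and -0.16, and Thrb in olfactory bulb was -0.055 without libraries under 2 M counts. Leaving out each mouse gave ranges that cross 0 for Dio1 (-0.083 to 0.10 diet, -0.023 to 0.15 plasma), Thrb (-0.090 to 0.00032 diet, -0.020 to 0.10 plasma), Thra (-0.0012 to 0.088 plasma) and Thrsp (-0.095 to 0.0032 plasma) across the brain. In liver these were Thrb (-0.058 to 0.062) and Thrsp (-0.13 to 0.43), in diet pons Thrb (-0.021 to 1.07) and Hr (-0.16 to 0.53), and also Klf9 in plasma entorhinal cortex (-0.10 to 0.20) and Thrb in diet olfactory bulb (-0.055 to 0.39). The causes were not tested. Of 586 values of single genes under other settings, 546 kept their direction and side of the threshold, 34 changed sign and 6 became called. The settings without the pons library, without libraries closest to another region and without a trend were chosen after seeing the data. Group sizes of 2 to 5 mice and levels under 5 CPM (Dio1 in brain, Dio2 in hypothalamus and Hr in several regions) limit the precision. In AL and YMP mice the Hr means were that low in SVZ, choroid plexus, both hippocampus regions and entorhinal cortex. In aDR mice they were so in these regions except SVZ, and in PBS mice in entorhinal cortex and posterior hippocampus.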
